A study of Mus musculus with 8 samples.

Results

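Ccl2, Ccl3, Ccl4 and Ccl7 are CC chemokines, small secreted proteins that draw monocytes and related white blood cells. They were taken from the deposited gene table by exact gene name, and each name stood on 1 locus, so they make up 4 of the 49868 named loci and of 76557 loci in all. The genes were picked because earlier results of these data showed them higher in Has-tKO. Their differences between the genotypes are therefore described here with no test, and nothing is supported with them.

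The libraries came from cultured mesenchymal stem cells (MSc) of mouse thigh and shin bones, 1 mouse per library. The 4 wildtype mice were C57Bl6/J. The 4 Has-tKO mice lacked Has1 and Has3 from birth, and their Has2 was deleted in culture by Cre recombination, so that all 3 hyaluronan synthases were targeted. Cells of both genotypes received 4-hydroxytamoxifen for 48 h in passages 2 and 3, were grown for 4 passages, and were sampled on day 7 of osteogenic culture. The wildtype cells thus shared the tamoxifen exposure, while no label or file used here gives the promoter driving Cre or the age of the mice. The study asked how losing hyaluronan synthesis affects bone differentiation. Values are FPKM, fragments normalised for gene length and sequencing yield, and libraries are named wildtype 1 to 4 and Has-tKO 1 to 4 as labelled.

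CC chemokines carry a pair of adjacent cysteines near the start of the mature protein, which gives the family its name. Ccl2 (MCP-1, also called JE in the mouse) and Ccl7 (MCP-3) act mainly through the receptor Ccr2, which releases monocytes from the bone marrow and guides them into tissue. Ccl3 (MIP-1 alpha) and Ccl4 (MIP-1 beta) are close relatives of each other, and Ccl3 acts through Ccr1 among other receptors. Stromal cells and osteoblasts can make Ccl2 and Ccl7 when stimulated, whereas Ccl3 and Ccl4 are typical products of activated macrophages and other blood cells. In bone these chemokines are known for bringing in osteoclast precursors.

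All 4 genes lie on mouse chromosome 11. In the RefSeq gene order of the GRCm38.p6 assembly, Ccl2 and Ccl7 are direct neighbours, and so are Ccl3 and Ccl4 at another place of the same chromosome. The coding stretch around the cysteine pair is shown for each gene because it marks the family and shows how far the copies differ. It comes from the GENCODE M21 transcripts, runs 5′ to 3′ over 54 bases, and has the adjacent cysteine codons in capitals.
Ccl2: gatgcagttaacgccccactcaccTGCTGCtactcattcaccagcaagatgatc
Ccl7: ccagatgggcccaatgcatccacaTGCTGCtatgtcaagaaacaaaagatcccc
Ccl3: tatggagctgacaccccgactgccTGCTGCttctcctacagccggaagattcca
Ccl4: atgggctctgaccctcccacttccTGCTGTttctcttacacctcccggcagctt
The pair begins at codon 34 in Ccl2, Ccl3 and Ccl4 and at codon 33 in Ccl7. Over the aligned coding sequence Ccl3 and Ccl4 shared 68.5% of bases, Ccl2 and Ccl7 63.1%, and the other pairings 55.5% to 61.3%. The coding sequence of Ccl2 has 444 bases, against 276 in Ccl3 and Ccl4 and 291 in Ccl7. The longest exact run shared by the Ccl2 and Ccl7 transcripts was 23 bases, and that of Ccl3 and Ccl4 was 9 bases, so these are not near-identical copies.

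A promoter sequence was found in the RefSeq table for Ccl3, and none for Ccl2, Ccl4 and Ccl7. It is shown because the 4 genes were higher in the same libraries. The 250 bases before the start lie at chr11:83649379-83649628 on the minus strand of GRCm38.p6, and the only TATAA on the strand of the gene is in capitals.
Ccl3 promoter: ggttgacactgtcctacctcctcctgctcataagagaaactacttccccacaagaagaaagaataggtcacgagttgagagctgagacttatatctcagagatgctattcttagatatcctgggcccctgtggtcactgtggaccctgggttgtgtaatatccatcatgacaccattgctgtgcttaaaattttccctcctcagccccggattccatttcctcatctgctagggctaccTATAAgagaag
TATAA begins 11 bases before the start given in the table, and 16.0% of all promoters hold it on the same strand in the same window. Searched on both strands over 300 bases, the table's window held no NF-kappaB motif in any of 4 overlapping forms, the strictest found in 0.0883% of the 32851 promoters and the loosest, GGG and CC with 5 free bases between, in 50.8%. It also held no AP-1 motif TGANTCA (7.81% of promoters) and no C/EBP motif TTGCGCAA (0.183%) or TTGCNNAA (10.8%). These searches say only that the letters are not in this window.

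Library totals ran from 198221 to 259871 FPKM, and 8327 to 10353 named genes per library reached 1 FPKM. Wildtype 1 stood apart, with the lowest such number, 61.5% of its FPKM on unnamed loci, and a median-ratio size factor of 0.684 where the other 7 libraries had 0.990 to 1.11. The unnamed percentage was 56.4% in Has-tKO 4 and 45.4% to 48.7% in the other 6 libraries. Of the targeted genes, Has3 was the one with a name in the table, at 0.236 to 0.466 FPKM in wildtype and 0.663, 0.576, 0.621 and 0.150 FPKM in Has-tKO 1 to 4. Which stretch of Has3 was deleted is not stated, so this level does not check the genotype, and Has1 and Has2 were not analysed here. The median log2 difference of all 9916 tested loci was 0.16 in favour of Has-tKO, and 0.011 after median-ratio scaling. Values are given as deposited first and after that scaling second.

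By FPKM, a level per transcript length, Ccl7 was the most abundant of the 4 transcripts and Ccl2 the second. Ccl7 stood at 92.2, 89.0, 105 and 61.7 FPKM in wildtype 1 to 4, and at 253, 149, 226 and 187 FPKM in Has-tKO 1 to 4. Each Has-tKO library lay above each wildtype library. The means of the genotypes were 87.0 ± 18.3 and 204 ± 45.4 FPKM (SD, n = 4 each), a ratio of 2.34. On the log2(FPKM + 1) scale the difference was 1.22 (SE 0.21), and 1.01 (SE 0.25) after scaling. The gap then nearly closed, since the lowest Has-tKO value was 134.9 and the highest wildtype value 134.7 scaled FPKM, the latter in wildtype 1. Ccl7 was already a prominent transcript in wildtype cells, where it ranked between 88 and 179 among named genes by FPKM, and it ranked between 25 and 57 in Has-tKO.

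Ccl2 stood at 7.97, 7.76, 9.78 and 3.78 FPKM in wildtype 1 to 4, and at 53.9, 32.0, 52.0 and 32.0 FPKM in Has-tKO 1 to 4. The groups did not overlap, and the lowest Has-tKO library held 3.27 times the highest wildtype library. Has-tKO 1 and 3 were the high pair and Has-tKO 2 and 4 the low pair, while wildtype 4 was the lowest of its group for Ccl2 and for Ccl7. The ratio of the means was 5.80, and the log2(FPKM + 1) difference was 2.40 (SE 0.27), or 2.21 (SE 0.30) after scaling. Among named genes Ccl2 ranked between 1654 and 4762 in wildtype libraries and between 235 and 461 in Has-tKO libraries.

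**Figure D1:**
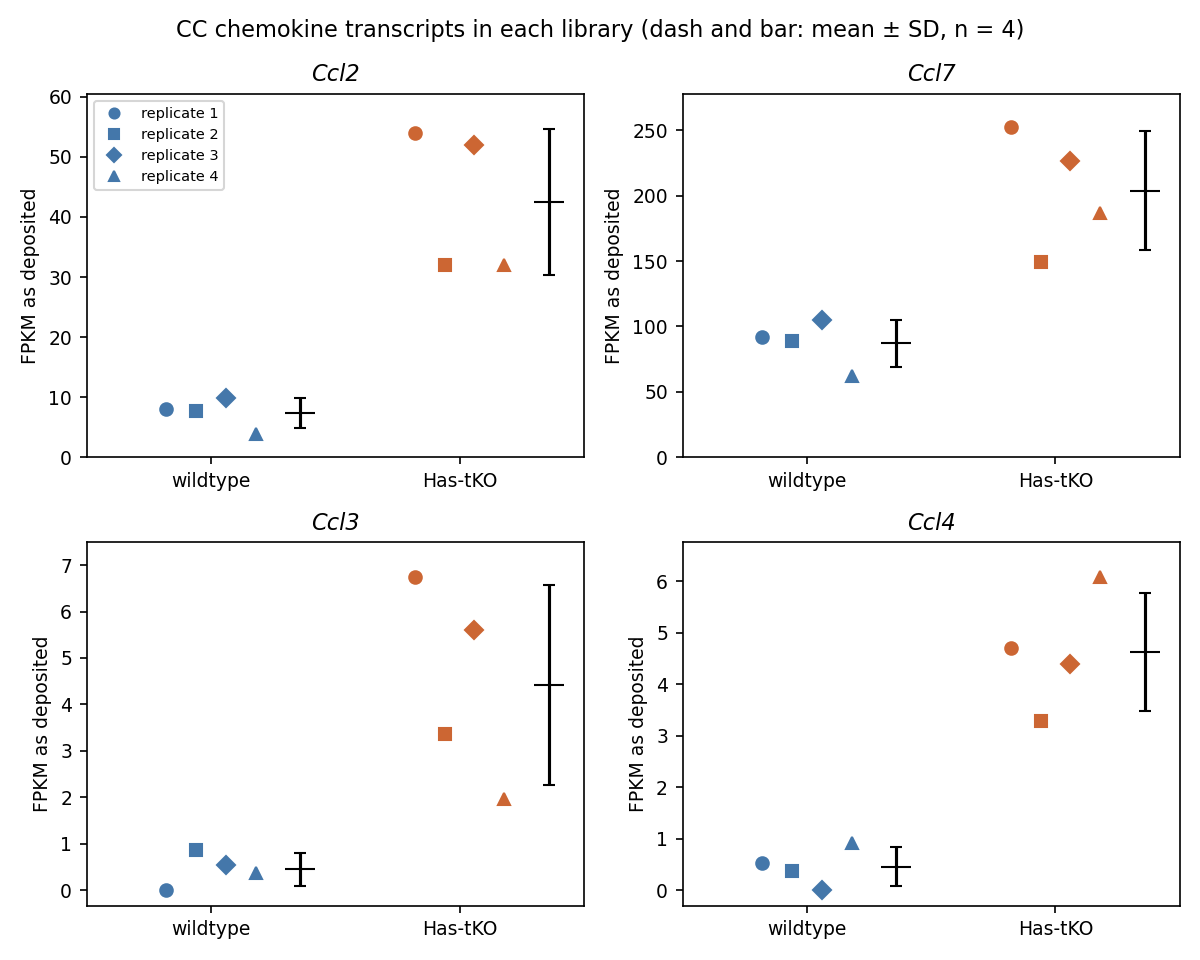
FPKM of Ccl2, Ccl7, Ccl3 and Ccl4 (vertical axes, linear) in the 4 wildtype (blue) and 4 Has-tKO (orange) libraries, 1 symbol per library, with the mean ± SD in black. In every panel the 4 Has-tKO symbols lie above the 4 wildtype symbols, from a lowest Has-tKO value of 149 against a highest wildtype value of 105 for Ccl7 to 1.95 against 0.864 for Ccl3.

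The neighbours Ccl2 and Ccl7 did not differ between the genotypes by the same factor. Within each library Ccl2 amounted to 8.65%, 8.73%, 9.30% and 6.13% of the Ccl7 FPKM in wildtype 1 to 4, and to 21.3%, 21.4%, 23.0% and 17.1% in Has-tKO 1 to 4. This ratio is free of any scaling between libraries, and its groups did not overlap (8.20% ± 1.41 and 20.7% ± 2.50, SD, n = 4 each). Both genes were chosen for higher levels in Has-tKO, and the ratio was added after their values were seen. The separation therefore carries no weight, and how many gene pairs separate in this way was not computed. Wildtype 1, which stood apart by its size factor and its unnamed percentage, had the same ratio as wildtype 2 and 3 to within 1 percentage point. The lowest ratio of each genotype was that of replicate 4.

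**Figure D2:**
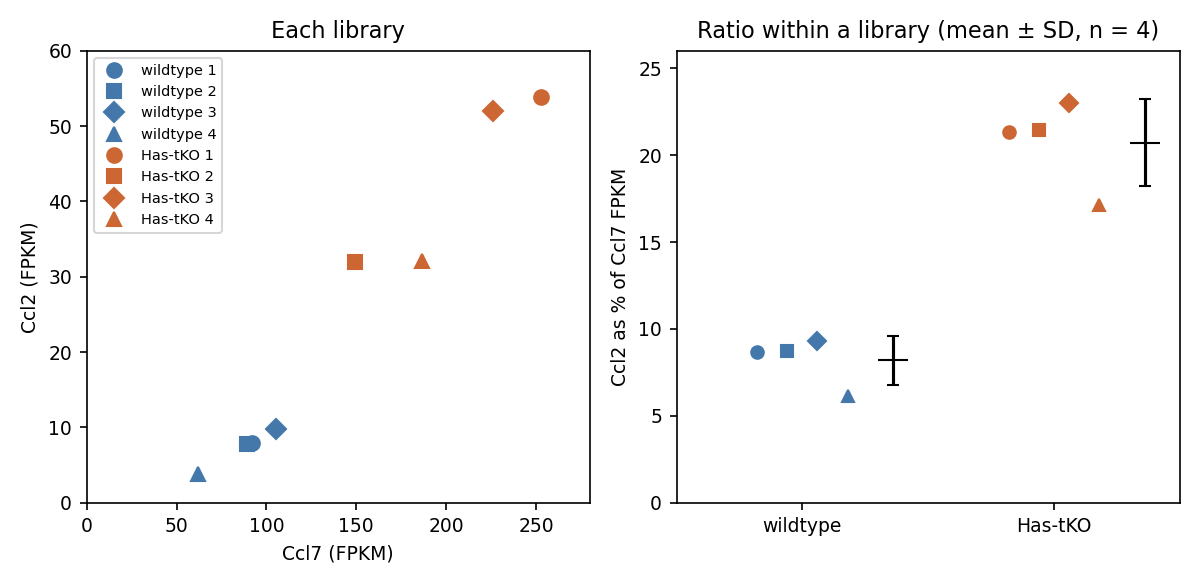
Left, Ccl2 FPKM against Ccl7 FPKM in each of the 8 libraries. Right, Ccl2 as a percentage of Ccl7 FPKM within each library, with the mean ± SD of 4 libraries in black: wildtype lies between 6.13% and 9.30% and Has-tKO between 17.1% and 23.0%. Both genes were chosen for higher levels in Has-tKO, so this separation carries no weight.

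Ccl3 and Ccl4 lay under 1 FPKM in every wildtype library. Ccl3 was listed at 0, 0.864, 0.550 and 0.359 FPKM in wildtype 1 to 4, and stood at 6.74, 3.36, 5.60 and 1.95 FPKM in Has-tKO 1 to 4. The Has-tKO libraries were spread over a 3.45-fold range, the widest of the 4 genes, with Has-tKO 4 lowest. The log2(FPKM + 1) difference was 1.85 (SE 0.29), or 1.78 (SE 0.29) after scaling. None of 15 housekeeping genes was at 0 in any library, which does not show how well a gene under 1 FPKM is detected.

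Ccl4 stood at 0.519, 0.368 and 0.921 FPKM in wildtype 1, 2 and 4 and was listed at 0 in wildtype 3. In Has-tKO 1 to 4 it stood at 4.70, 3.29, 4.40 and 6.07 FPKM. Has-tKO 4, the lowest Has-tKO library for Ccl3, was the highest for Ccl4. The log2(FPKM + 1) difference was 1.97 (SE 0.22), or 1.83 (SE 0.23) after scaling. Both genes met the filter of the test (1 FPKM in 4 libraries) only through Has-tKO, and the added 1 compresses their differences. With 0.1 in place of 1 they were 3.31 for Ccl3 and 3.48 for Ccl4.

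The listed proportion of the 2 transcripts varied between libraries. Ccl3 amounted to 143%, 102%, 127% and 32.2% of the Ccl4 FPKM in Has-tKO 1 to 4. The low value was that of Has-tKO 4, which had 56.4% of its FPKM on unnamed loci. In wildtype 2 and 4 it was 235% and 39.0%, from values under 1 FPKM. Ccl3 was listed at 0 in wildtype 1 and Ccl4 in wildtype 3. The sum of Ccl3 and Ccl4 lay between 0.519 and 1.28 in wildtype and between 6.64 and 11.4 FPKM in Has-tKO. In the RefSeq records of GRCm38.p6 the spans of Ccl3 and Ccl4 overlap, and the library type does not record strand. Whether their exons overlap was not checked, so it is not known whether any reads were ambiguous between the pair.

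Groups did not overlap for all 4 genes, with deposited and with scaled FPKM, which was also true in this direction of 12.0% of tested loci as deposited and of 7.18% after scaling. Because the genes were chosen from this comparison, that count carries no weight. The deposited differences ranged, with 1 library left out in turn, from 2.16 to 2.55 for Ccl2, from 1.06 to 1.36 for Ccl7, from 1.64 to 2.11 for Ccl3 and from 1.80 to 2.12 for Ccl4. Without wildtype 1 and Has-tKO 4 together they were 2.58, 1.28, 1.94 and 1.88 in the same order.

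Among the other CC chemokines, Ccl6, a myeloid chemokine of rodents, rose in Has-tKO. Of 17 listed genes 16 carried a name in the table, Ccl12 was not analysed here, and 3 were abundant enough to test, of which 1 rose and none fell (limma, adjusted p under 0.05). Over all tested loci 1.77% were called, 1.58% higher and 0.192% lower, and after scaling 1.73% higher and 1.09% lower. Ccl6 stood at 0.738, 2.61, 3.38 and 2.35 FPKM in wildtype 1 to 4 and at 7.30, 6.93, 4.77 and 6.37 FPKM in Has-tKO 1 to 4, and the groups did not overlap (log2 difference 1.23, SE 0.26, limma adjusted p = 0.0392, and 0.0322 after scaling). Groups separated in this direction for 12.0% of tested loci as deposited. The call ended when wildtype 2, wildtype 4 or any of the Has-tKO libraries was left out (limma adjusted p from 0.0505 to 0.152). It also ended with the filter lowered to 0.1 FPKM in 4 libraries (0.0765) and with a pseudocount of 0.1 (0.0719) or 0.5 (0.0514). Ccl9, another rodent chemokine that osteoclasts and macrophages make, was the second most abundant CC chemokine in wildtype at 18.6 ± 9.28 FPKM (SD, n = 4), against 37.7 ± 7.57 FPKM in Has-tKO. Its difference of 1.09 (SE 0.31) did not pass (limma adjusted p = 0.0959), and passed without wildtype 3 (1.36, limma adjusted p = 0.0260). Ccl5 (RANTES), which attracts T cells and monocytes, lay at 1.42 ± 0.228 and 2.86 ± 0.864 FPKM (0.65, SE 0.18, limma adjusted p = 0.0826). The medians of the 3 tested genes and of all tested loci were 1.09 and 0.16.

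The remaining CC chemokines were too low for the test. Ccl20, which attracts cells through Ccr6, was listed at 0 in all 4 wildtype libraries and stood at 2.40, 0.846, 1.09 and 1.65 FPKM in Has-tKO 1 to 4. Ccl8, a relative of Ccl2 also known as MCP-2, was listed at 0 in wildtype 1, 2 and 4 and at 1.11 FPKM in wildtype 3, and ranged from 0.445 to 4.47 FPKM in Has-tKO, so the groups overlapped. Ccl1, Ccl21a, Ccl22 and Ccl26 were listed at 0 in all 8 libraries.

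Of the summed FPKM of all CC chemokines, Ccl2, Ccl3, Ccl4 and Ccl7 together made up 75.7% to 90.2% in wildtype libraries and 79.3% to 88.0% in Has-tKO libraries, so the groups overlapped. Ccl7 alone held 68.9% to 82.6% in wildtype and 63.4% to 69.1% in Has-tKO. The percentage of Ccl2 lay between 4.44% and 7.15% in wildtype and between 11.2% and 15.9% in Has-tKO, without overlap. Because Ccl2 was chosen for its higher level in Has-tKO, this separation carries no weight. The sum itself was 119 ± 28.1 in wildtype and 307 ± 61.3 FPKM in Has-tKO (SD, n = 4 each).

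Receptors for these ligands were present at low levels. Ccr1, a receptor of Ccl3, overlapped between the groups (1.23 ± 0.465 and 2.37 ± 0.849 FPKM, SD, n = 4 each), with a difference of 0.58 (SE 0.23, limma adjusted p = 0.222). Of 11 listed CC receptors 10 carried a name, and Ccr9 was not analysed here.

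Ccr2, the receptor of Ccl2 and Ccl7, was too low for the test at 1 FPKM. It stood at 0.0482, 0.296, 0.115 and 0.0784 FPKM in wildtype 1 to 4 and at 1.18, 1.86, 0.783 and 1.26 FPKM in Has-tKO 1 to 4, without overlap. The same was true in this direction of 12.0% of tested loci as deposited. Ccr4, Ccr6 and Ccr8 were listed at 0 in all libraries.

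Scavenging receptors bind chemokines without the usual signalling. Of 6 listed, all in the table, 2 were tested and none passed (limma, 0 at an unadjusted p under 0.05 as well): Ackr3 (2.63 ± 1.34 and 4.23 ± 0.785 FPKM, log2 difference 0.61, limma adjusted p = 0.303) and Ackr4 (2.12 ± 0.940 and 1.73 ± 0.761 FPKM, -0.18, limma adjusted p = 0.750). Ccrl2, an atypical receptor that presents the attractant chemerin, lay at 0.182 to 0.275 in wildtype and 0.991 to 2.63 FPKM in Has-tKO, and was called only with a filter of 0.1 FPKM in 4 libraries, which all 8 libraries met (log2 difference 1.22, SE 0.20, limma adjusted p = 0.0324). Ackr2, the scavenger of inflammatory CC chemokines including Ccl2, did not exceed 0.0924 FPKM in any library.

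**Figure D3:**
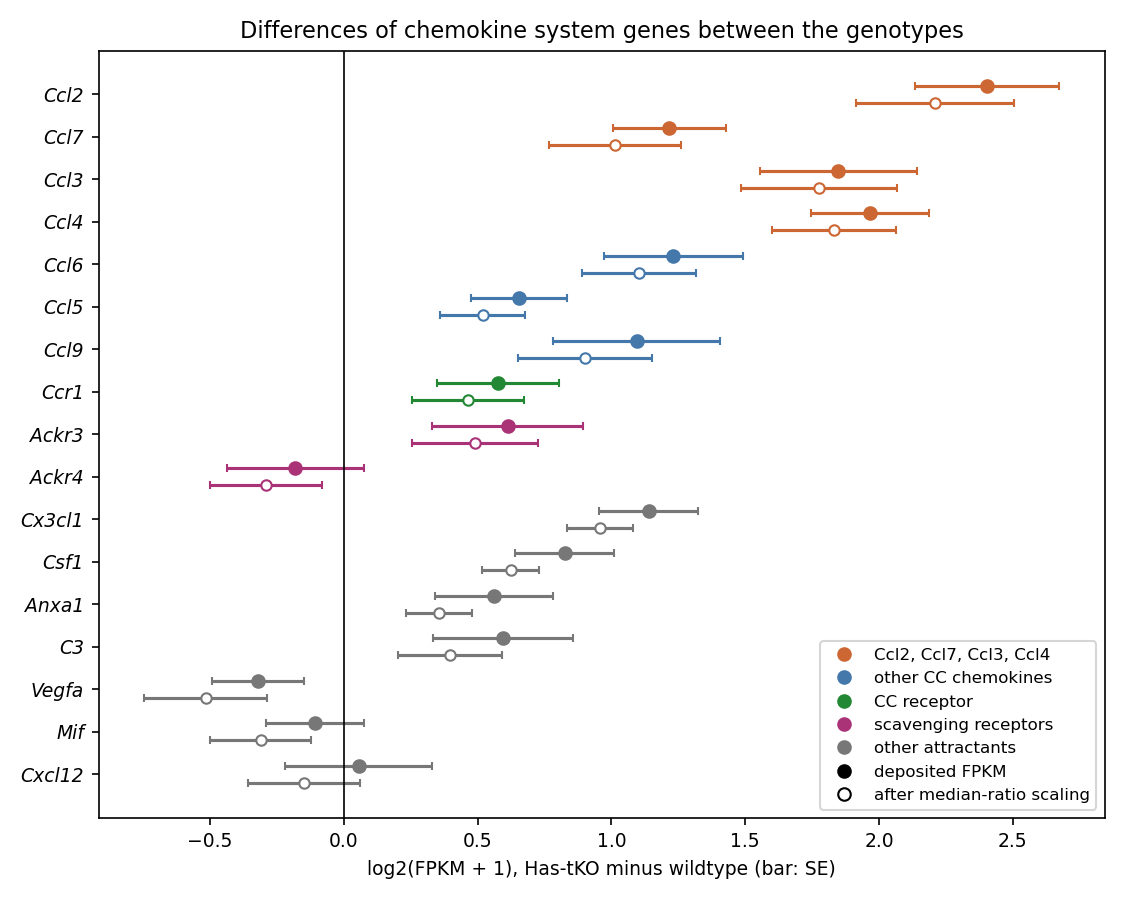
Difference between the genotypes in log2(FPKM + 1), Has-tKO minus wildtype, with its SE, for the 4 chemokines, the receptor Ccr1 and the tested genes among other CC chemokines, scavenging receptors and other attractants. Filled symbols are deposited FPKM and open symbols follow median-ratio scaling: Ccl2 lies furthest right at 2.40 and 2.21, and Cxcl12 changes sides of 0 (0.055 and -0.15).

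Other monocyte attractants and growth factors were changed in 2 of 7 tested members, both higher and none lower. Over all tested loci 1.58% were called higher and 0.192% lower. Cx3cl1 (fractalkine), which binds Cx3cr1 on monocytes, went from 6.66 ± 1.31 to 15.8 ± 2.61 FPKM (SD, n = 4 each, log2 difference 1.14, SE 0.19, limma adjusted p = 0.0156, and 0.00952 after scaling). Its call ended without wildtype 4 or Has-tKO 1 (limma adjusted p of 0.0596 and 0.0756, lowest and highest). In those fits only 10 and 12 of all tested loci were called, against 176 with all libraries. Csf1, the growth factor of macrophages and osteoclasts, went from 54.9 ± 12.6 to 96.2 ± 7.26 FPKM (0.83, SE 0.19, limma adjusted p = 0.0485). Its call ended without wildtype 2, wildtype 4 or any Has-tKO library (limma adjusted p from 0.0523 to 0.186). It also ended with the replicate block (limma adjusted p = 0.0670), at the filter of 0.1 FPKM (0.0877) and at pseudocounts of 0.1 (0.0600) and 0.5 (0.0514). Anxa1 (0.56, limma adjusted p = 0.222) and the complement factor C3 (0.59, limma adjusted p = 0.277) did not pass. Of the 7 differences 5 were positive and 2 negative as deposited, and 4 were positive after scaling. Over all tested loci 73.3% and 51.5% were positive. The median of the list was 0.56, against 0.16 over all tested loci.

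Proteins that hold chemokines at the cell surface or cut them gave no call among 9 tested of 14 listed genes, 10 of which carried a name (limma, 4 at an unadjusted p under 0.05). Mmp12, a macrophage metalloprotease that cleaves CC chemokines, lay at 4.17 ± 1.49 and 8.79 ± 1.71 FPKM (log2 difference 0.95, limma adjusted p = 0.0579). It passed after scaling (0.79, limma adjusted p = 0.0468) and without wildtype 1 (0.74, limma adjusted p = 0.0416). Mmp9 lay at 19.6 ± 11.3 and 7.22 ± 3.61 FPKM (-1.23, limma adjusted p = 0.131), and passed only with the replicate block (limma adjusted p = 0.0304). Mmp3, which trims Ccl2 and Ccl7 (-0.57, limma adjusted p = 0.207), and the heparan sulfate carrier Gpc1 (-0.44, limma adjusted p = 0.261) did not pass.

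Of 18 tested inducers and transcription factors of CC chemokine genes, 4 rose and none fell. Over all tested loci 1.58% rose and 0.192% fell. As deposited all 18 had a positive difference, as did 73.3% of all tested loci, and after scaling 16 did (51.5% of all tested loci), Sp1 and Irf3 being negative (-0.042 and -0.067). The list was fixed with earlier results of these data known, so its direction is not independent evidence. Tnf, a cytokine that induces Ccl2, went from 2.20 ± 0.783 to 8.49 ± 2.14 FPKM (SD, n = 4 each, log2 difference 1.58, SE 0.23, limma adjusted p = 0.0109). The NF-kappaB subunit Relb went from 6.06 ± 1.43 to 13.9 ± 1.59 FPKM (1.09, limma adjusted p = 0.0179). Nfkb2 (1.14, limma adjusted p = 0.00778) and the AP-1 member Fosl1 (0.87, limma adjusted p = 0.0478) were the other two. Calls of Tnf and Nfkb2 ended without wildtype 4 or Has-tKO 1 (limma adjusted p of 0.0541 and 0.0547, lowest and highest), and that of Relb also without Has-tKO 4 (up to 0.0853). The call of Fosl1 ended in 7 of 8 such fits, all but that without wildtype 3 (up to 0.188), and after scaling (0.0551), at the filter of 0.1 FPKM (0.0914) and at pseudocounts of 0.1 (0.0721) and 0.5 (0.0568). After scaling Nfkb1 and Jun passed with Tnf, Relb and Nfkb2. The list median was 0.57 as deposited and 0.40 after scaling. Without the libraries that stood apart, wildtype 1 and Has-tKO 4, the calls of Ccl6, Cx3cl1, Csf1, Tnf, Relb and Nfkb2 held (limma adjusted p from 0.00503 to 0.0257), and that of Fosl1 did not (0.0685).

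Genes that speed or slow the decay of cytokine messages, such as Zfp36, showed no call among 6 tested of 9 listed (limma, 0 at an unadjusted p under 0.05). Zfp36, which destabilises the messages of Tnf and of several chemokines, lay at 0.667 to 1.29 in wildtype and 1.21 to 2.11 FPKM in Has-tKO (log2 difference 0.36, limma adjusted p = 0.315). The other 5 genes had differences between -0.10 and 0.27.

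The cultures held transcripts of macrophages beside those of stromal and bone cells. Of 24 listed monocyte and macrophage markers 19 carried a name and 17 were tested, and 4 rose and none fell: Cx3cr1 (log2 difference 1.35, limma adjusted p = 0.0371), the leukocyte integrin chain Itgb2 (1.05, limma adjusted p = 0.0471), Cd52 (0.87, limma adjusted p = 0.0454) and the transcription factor Spi1 (1.06, limma adjusted p = 0.0458). Over all tested loci 1.58% rose and 0.192% fell, and after scaling 1.73% rose and 1.09% fell. After scaling Cx3cr1 and Itgb2 passed, while Cd52 (limma adjusted p = 0.112) and Spi1 (0.0535) did not. Leaving out wildtype 4, Has-tKO 1, Has-tKO 2 or Has-tKO 4 ended all 4 calls, and without wildtype 3 the count was 12. With Has-tKO 3 left out the count was 2, with wildtype 2 left out 1, and without wildtype 1 and Has-tKO 4 together 4, where Spi1 did not pass (limma adjusted p = 0.0790). All 17 differences were positive, as deposited and after scaling (73.3% and 51.5% of all tested loci), with a deposited median of 0.99 against 0.16 over all tested loci. All 4 calls ended at the filter of 0.1 FPKM (limma adjusted p from 0.0745 to 0.0877) and at a pseudocount of 0.1 (0.0526 to 0.0673). The summed level of the 19 markers was 416, 452, 709 and 419 FPKM in wildtype 1 to 4 and 1122, 847, 691 and 1096 FPKM in Has-tKO 1 to 4. Wildtype 3 therefore lay above Has-tKO 3. The most abundant markers were C1qb, C1qa and Csf1r, and none of the 19 was at 0 in all libraries. In bulk samples fewer cells of a type and less RNA per cell cannot be told apart.

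Set against that sum within each library, the 4 chemokines differed from each other. Ccl7 amounted to 22.2%, 19.7%, 14.8% and 14.7% of the myeloid marker sum in wildtype 1 to 4 and to 22.5%, 17.6%, 32.8% and 17.0% in Has-tKO 1 to 4, so the groups overlapped. Ccl2 amounted to 1.92%, 1.72%, 1.38% and 0.903% in wildtype and to 4.81%, 3.77%, 7.52% and 2.92% in Has-tKO, without overlap. Ccl4 amounted to at most 0.220% in wildtype and at least 0.388% in Has-tKO, again without overlap. Ccl3 amounted to at most 0.191% in wildtype, and lay between 0.178% and 0.811% in Has-tKO, so Has-tKO 4 fell inside the wildtype range. The 4 genes were chosen for higher levels in Has-tKO, so the separation of Ccl2 and Ccl4 carries no weight. How many of all tested loci separate on this scale was not computed. Wildtype 3 and Has-tKO 3 had marker sums of 709 and 691 FPKM, with Ccl2 at 9.78 and 52.0 FPKM and Ccl7 at 105 and 226 FPKM. These are the highest marker sum of wildtype and the lowest of Has-tKO, 1 library each, so nothing is concluded from them. The part of the macrophage level in the differences of the chemokines was not tested.

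**Figure D4:**
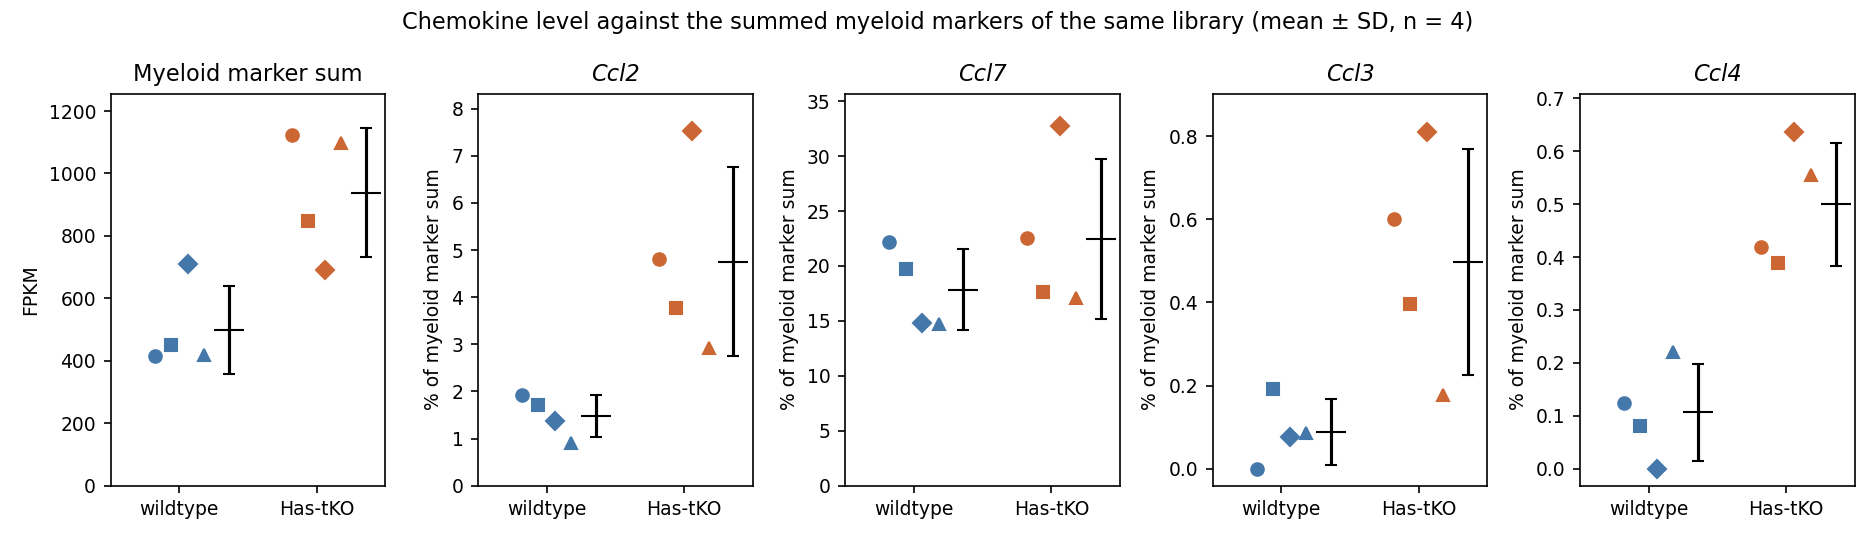
Summed FPKM of 19 monocyte and macrophage markers (first panel) and each chemokine as a percentage of that sum in the same library (other panels), 1 symbol per library, mean ± SD of 4 libraries in black. Ccl2 and Ccl4 separate the genotypes, Ccl7 overlaps, and Ccl3 of Has-tKO 4 (0.178%) lies below that of wildtype 2 (0.191%). The genes were chosen for higher levels in Has-tKO, so the separation carries no weight.

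Markers of T and NK cells, B cells, mast cells and basophils, other white blood cells that make Ccl3 and Ccl4, were close to 0. The summed level of 10 T and NK cell markers did not exceed 0.247 FPKM in any library, and 8 of them were at 0 throughout. The sum of 6 B cell markers stayed at or below 0.412 FPKM and that of 6 mast cell and basophil markers at or below 0.240 FPKM. Neutrophil markers summed to 0.866 to 3.57 in wildtype and 1.24 to 2.59 FPKM in Has-tKO, led by Camp and Csf3r, both too low for the test. Csf3r lay at 0 to 0.804 in wildtype and 0.884 to 1.84 FPKM in Has-tKO. Its groups did not overlap, as was true in this direction of 12.0% of tested loci. Camp lay the other way by its means (1.29 and 0.568 FPKM), with overlap. The 6 endothelial markers summed to at most 1.26 FPKM. The sum of 7 osteoclast markers was 30.2 to 104 in wildtype and 20.1 to 43.7 FPKM in Has-tKO, led by Acp5, and none of the 3 tested was called (limma). The stromal markers Lum (540 and 349 FPKM in wildtype and Has-tKO), Pdgfra (17.8 and 18.6 FPKM) and Thy1 and the osteoblast genes Ibsp, Alpl and Ifitm5 were present, as the labels lead one to look for. No stromal marker and no osteoblast gene was called. After scaling 3 of 10 tested osteoblast genes fell, as did 1.09% of all tested loci. Without wildtype 1 and Has-tKO 4, unscaled, 3 osteoblast genes and 2 of 6 tested stromal markers fell. In that fit, chosen after seeing the data, 96 of all 9916 tested loci fell.

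Variation among mice of the same genotype was a measure that the choice of the 4 genes did not use. After the mean of each genotype was subtracted from log2(FPKM + 1), Ccl2 and Ccl7 moved together over the 8 libraries (Pearson r = 0.95, and 0.95 after scaling). Ccl3 correlated with Ccl2 at 0.54 and with Ccl7 at 0.47, which became 0.28 and 0.09 after scaling. Ccl4 correlated negatively with Ccl2 (-0.54), Ccl3 (-0.32) and Ccl7 (-0.32), and that with Ccl7 became 0.044 after scaling. These values are descriptions over 8 points that share library size as a common source, and they carry no p.

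By the same measure the tested genes most like Ccl7 were the sphingosine kinase Sphk1 (0.99), the lysosomal protease Ctsl (0.98), the kinase Pim1 (0.94), the polyamine enzyme Sat1 (0.93) and the itaconate-producing enzyme Acod1 (0.92). Those most like Ccl2 were Ctsl (0.95), Acod1 (0.92), Sphk1 (0.92), the lysosomal nuclease Dnase2a (0.90) and Slc24a5 (0.89), so 3 of the 5 names were shared. After scaling Sphk1 and Ctsl stood at 0.95 and 0.92 with Ccl7 and at 0.84 and 0.82 with Ccl2. Some of these genes were called between the genotypes and others were not. Ctsl lay at 24.4 and 23.9 FPKM in wildtype and Has-tKO (log2 difference -0.028, limma adjusted p = 0.939). Acod1 (0.792 and 4.25 FPKM, 1.55, limma adjusted p = 0.0192) and Pim1 (2.06 and 4.99 FPKM, 0.97, limma adjusted p = 0.0179) were called, Acod1 with a wildtype mean under 1 FPKM. Both calls ended without wildtype 4 or Has-tKO 1 (limma adjusted p up to 0.0762 and 0.0884). The genes most like Ccl3 were Coil (0.99), Mpp6, Fiz1, Ptp4a3 and Cd80 (0.97 to 0.98), and those most like Ccl4 were Uqcrq, Ift57, Lrrn4cl, Snrpe and Wdr61 (0.91 to 0.95). After scaling they ran from 0.70 (Fiz1) to 0.98 (Mpp6) with Ccl3 and from 0.78 (Ift57) to 0.96 (Uqcrq) with Ccl4. Values over 0.9 were reached by 110 tested genes with Ccl3, against 5 with Ccl2, 9 with Ccl7 and 12 with Ccl4. The 5 names given for Ccl3 therefore stand little apart. None of the 10 genes named for Ccl3 and Ccl4 passed the test between the genotypes.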

How the data were processed

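RNA was depleted of ribosomal RNA and sequenced from 8 libraries, 4 per genotype, per the labels' protocols. The deposited table holds FPKM values computed by the authors, 1 per locus. The submitters' processing notes name bcl2fastq, fastp, HISAT2, StringTie and DESeq2 and the builds GRCm39 and hg38. Their versions and options are not stated there. Columns were matched to libraries by name.

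Ratios of low values between libraries showed no common step (at most 0.429% fell in 1 bin), so reads could not be recovered and depth is unknown. Named loci with at least 1 FPKM in 4 libraries (9916) were fitted as log2(FPKM + 1) with limma 3.58.1 in R 4.3.3 (intensity trend, two-sided, Benjamini-Hochberg over all tested loci, threshold 0.05), without rescaling. Median-ratio scaling used 7435 loci. For a name on several loci (67 names) the one with the highest mean was used. The fit was tested on simulated data. Each replicate is a separate mouse.

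The members and lists were chosen with earlier results of these data known. Named genes were the 4 members, other CC chemokines and receptors with a mean of at least 1 FPKM, up to 4 genes of smallest p per pathway list, the 5 most alike genes per member, and the most abundant markers. Ccl1, Ccl8, Ccl20, Ccl21a, Ccl22, Ccl26, Ccr2, Ccr4, Ccr6, Ccr8, Ackr2, Ccrl2, Nfkb1, Jun, Sp1, Irf3 and Has3 were named after their values were seen. The comparison of Ccl2 with Ccl7 within a library and the coding sequence identity were also added then. A planned comparison of proteins was not made, and the result of 1 receptor is not reported here. Alternatives covered pseudocounts, filters, scaling, the trend, a replicate block and omitted libraries.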

Additional observations from a re-analysis of the deposited data

Results flagged for a closer look

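In 3 of the 86 groups of 4 libraries examined, 1 library lay far from the other 3 by Dixon's criterion at the 95% level, which chance meets in about 1 group in 20. C3 stood at 62.7 FPKM in Has-tKO 2, against 38.3 to 41.5 FPKM in the other Has-tKO libraries. Mmp9 stood at 12.6 FPKM in Has-tKO 3, against 5.05 to 5.88 FPKM in the others. Relb stood at 11.5 FPKM in Has-tKO 2, against 14.4 to 14.9 FPKM in the others. No value of Ccl2, Ccl3, Ccl4 or Ccl7, and no ratio between them, stood apart in this way.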

How the results depend on the processing

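The differences of Ccl2, Ccl3, Ccl4 and Ccl7 kept their sign under every setting tried. With a pseudocount of 0.1 Ccl3 moved to 3.31 and Ccl4 to 3.48, and with 0.5 Ccl4 moved to 2.50. Without 1 library they spanned 2.16 to 2.55 (Ccl2), 1.64 to 2.11 (Ccl3), 1.80 to 2.12 (Ccl4) and 1.06 to 1.36 (Ccl7). The replicate numbers are not stated to pair the mice. After the genotype means were removed, same-numbered libraries correlated at -0.083, 0.31, -0.12 and -0.059. Libraries of different number correlated from -0.34 to 0.34, so these values cannot decide whether same-numbered libraries share a batch. The replicate block gave 147 calls over all tested loci against 176 without it. It left the 4 differences at 2.40, 1.85, 1.97 and 1.22, and gave 1 call among other attractants (2 without), 1 in chemokine binding and cleavage (0 without) and 1 myeloid marker (4 without). Calls over all tested loci were 280 after scaling, 85 at a filter of 0.1 FPKM, 2 with no filter, 111 at a pseudocount of 0.1, and 10 to 349 without 1 library. The lowest of these were 10 without wildtype 4 and 12 without Has-tKO 1, so most calls of any gene ended there. The split after scaling was 172 higher and 108 lower, against 157 and 19. With no filter every list had 0 calls. At 0.1 FPKM the count for other CC chemokines stayed at 1 only because Ccl20, which met that filter through Has-tKO alone, took the place of Ccl6, and the count was 2 for CC receptors (with Ccr2, under 0.1 FPKM in 2 wildtype libraries), 1 for scavenging receptors, 1 for other attractants and 0 for myeloid markers. Pseudocounts of 0.1 and 0.5 gave 0 and 0 for other CC chemokines, 1 and 1 for other attractants, and 0 and 2 for myeloid markers. Scaling gave 1 in chemokine binding and cleavage and 2 myeloid markers, Cx3cr1 and Itgb2. Scaling without wildtype 1 and Has-tKO 4, an alternative chosen after seeing the data, also gave 2 myeloid markers, but these were Cd14 and Cd52. Without 1 library the counts spanned 0 to 2 (other CC chemokines), 0 to 1 (CC receptors), 0 to 2 (other attractants), 0 to 1 (binding and cleavage), 0 to 6 (inducers) and 0 to 12 (myeloid markers). The difference of Khsrp reversed to -0.023 after scaling without those 2 libraries, that of Elavl1 spanned -0.060 (without wildtype 1) to 0.37 without 1 library, and the likeness of Ccl4 and Ccl7 reversed to 0.044 after scaling. The cause was not tested. Depth is unknown, so no counting error could be given for the low values of Ccl3 and Ccl4.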
